A study of Mus musculus with 14 samples.

Results

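Cpt2, Nemp1 and Lhpp are 3 genes chosen by their measured values, because each lay about 2-fold below A/J in spleens of AcB55 mice and near A/J in spleens of AcB61 mice. They are 3 of the 6286 single named genes that could be tested, and each was measured by 1 feature of the array whose annotation gives that symbol alone. Because the strain values chose them, their log2 ratios are given as a description with no test. Spleen RNA of AcB55 (6 arrays) and of AcB61 (8 arrays) was hybridised to 2-channel cDNA arrays, each time with spleen RNA of A/J in the other channel, in a series titled with resistance to malaria. AcB55 and AcB61 are inbred recombinant congenic lines bred from A/J and C57BL/6, in which most of the genome comes from A/J. Infection, sex, age and the number or pooling of mice are not given in the labels, and A/J was never hybridised against A/J. A value below is the log2 ratio of strain to A/J, and replicates are numbered in order of deposit.

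The 3 genes act in different compartments of the cell. Cpt2 is carnitine palmitoyltransferase 2, the enzyme of the inner mitochondrial membrane that takes long-chain acyl groups off carnitine so that they can enter beta-oxidation. Nemp1, formerly Tmem194, is a protein of the inner nuclear membrane whose Xenopus counterpart binds the GTPase Ran. Lhpp is a phosphatase of the haloacid dehalogenase (HAD) type that acts on phosphohistidine, phospholysine and inorganic pyrophosphate.

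The stretches just before the start of 2 of these genes are shown because genes that are low together raise the question of what their promoters share. They are RefSeq sequences (GRCm38.p6), 250 bases each, read 5′ to 3′ on the gene's strand, and capitals mark each GC box, GGGCGG, a motif of promoters that Sp1-type factors bind. The Cpt2 stretch is chr4:107923590-107923839 on the minus strand, and the Nemp1 stretch is chr10:127676815-127677064 on the plus strand.
Cpt2: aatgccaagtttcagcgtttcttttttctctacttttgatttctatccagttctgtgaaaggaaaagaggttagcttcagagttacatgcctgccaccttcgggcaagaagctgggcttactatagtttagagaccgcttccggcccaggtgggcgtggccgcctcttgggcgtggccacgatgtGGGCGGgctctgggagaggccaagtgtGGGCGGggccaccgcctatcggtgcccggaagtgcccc
Nemp1: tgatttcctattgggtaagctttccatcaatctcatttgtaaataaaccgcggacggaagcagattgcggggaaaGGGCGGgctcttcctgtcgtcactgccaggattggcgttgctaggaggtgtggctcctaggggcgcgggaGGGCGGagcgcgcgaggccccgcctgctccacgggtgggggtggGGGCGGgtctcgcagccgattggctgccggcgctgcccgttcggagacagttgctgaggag

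On either strand the GC box was found 2 times before Cpt2 and 3 times before Nemp1. Of all 32851 RefSeq promoter stretches of this length, 32.7% hold at least 1 and 8.47% at least 3. The CCAAT box (CCAAT) was found 3 times before Nemp1, all on the reverse strand and none overlapping a GC box, and was not in the Cpt2 stretch. Of all stretches, 33.8% hold at least 1 and 2.79% at least 3. The G and C content was 56.8% before Cpt2 and 63.6% before Nemp1, against a median of 52.4%. On either strand, neither stretch holds the TATA box (TATAAA, in 12.4% of all stretches) or the E-box (CACGTG, in 6.02%). Nor does either hold the nuclear receptor motif (AGGTCA, in 4607 of the 32851 stretches) or the GATA site (AGATAA, in 9.99%). These matches are a description of letters in this window.

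Before the genes' own values, the arrays need a short account. Each array had a value for 12697 to 13031 genes and other features, counted before the filter that left 13045 to test. The number of arrays limits the precision. The 8 AcB61 arrays did not resemble each other equally: over all features, replicates 2, 6 and 8 correlated with each other at 0.789 to 0.835 and replicates 3, 5 and 7 at 0.710 to 0.792, but the 9 pairs between these sets at only -0.083 to 0.156. AcB55 replicates 1 and 2 stood apart in the neutrophil genes S100a9 (1.48 and 1.94, others -0.096 to 0.26) and Lcn2 (1.47 and 1.89, others -0.0086 to 0.29). Xist, the RNA of the inactive X chromosome, averaged 0.019 in AcB55 and -1.20 in AcB61 against A/J, and sex, which the labels do not give, and strain cannot be told apart in these arrays. The direction of the ratio is likely strain over A/J, because in all labels channel 1 is the strain and channel 2 is A/J, while dyes are not given per array. A ratio holds no level, so the tissue label could not be checked against spleen markers and no gene's level is set against another's.

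Cpt2 was the lowest of the 3 genes in AcB55. Its log2 ratios on AcB55 replicates 1 to 6 were -1.17, -1.21, -1.28, -1.42, -1.43 and -1.74. On AcB61 replicates 1 to 8 they were -0.096, 0.085, -0.075, -0.069, -0.060, 0.029, 0.13 and -0.074. All 6 AcB55 arrays lay below all 8 AcB61 arrays, with a gap of 1.08 between the highest AcB55 and the lowest AcB61 array. The mean was -1.38 ± 0.21 in AcB55 (SD, n = 6), which is 38.5% of the A/J signal, and -0.016 ± 0.086 in AcB61 (n = 8). AcB55 was thus 2.60-fold below A/J, and 5 of the 8 AcB61 arrays were below 0. Among the 13045 features, Cpt2 took rank 5 from the lowest by its AcB55 mean.

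Nemp1 gave -1.23, -1.23, -0.76, -1.12, -1.16 and -1.47 on AcB55 replicates 1 to 6. On AcB61 replicates 1 to 8 it gave 0.031, 0.12, -0.22, -0.027, -0.025, 0.32, -0.23 and 0.23. Replicate 3 of AcB55 was the least low and replicate 6 the lowest, and the strains' arrays did not overlap, with a gap of 0.53. The means were -1.16 ± 0.23 in AcB55, 44.7% of A/J or 2.24-fold lower, and 0.024 ± 0.20 in AcB61. In AcB61 the values followed the 2 sets of arrays: they were above 0 on replicates 2, 6 and 8 and below 0 on replicates 3, 5 and 7. The AcB61 mean was -0.095 without replicates 2, 6 and 8 and 0.13 without replicates 3, 5 and 7, a range that stays far from the AcB55 arrays.

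Lhpp gave -1.03, -0.83, -0.73, -1.25, -1.15 and -1.21 on AcB55 replicates 1 to 6. On AcB61 replicates 1 to 8 it gave -0.0013, -0.11, 0.11, -0.028, -0.090, 0.098, 0.071 and 0.047. The gap between the strains' arrays was 0.62. The mean was -1.03 ± 0.21 in AcB55, 48.9% of A/J or 2.04-fold lower, and 0.012 ± 0.083 in AcB61. Without AcB61 replicates 2, 6 and 8 the AcB61 mean was 0.012, and without replicates 3, 5 and 7 it was 0.0012, so the Lhpp mean shifted by less than that of Nemp1 when either set of AcB61 arrays was left out.

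**Figure D1:**
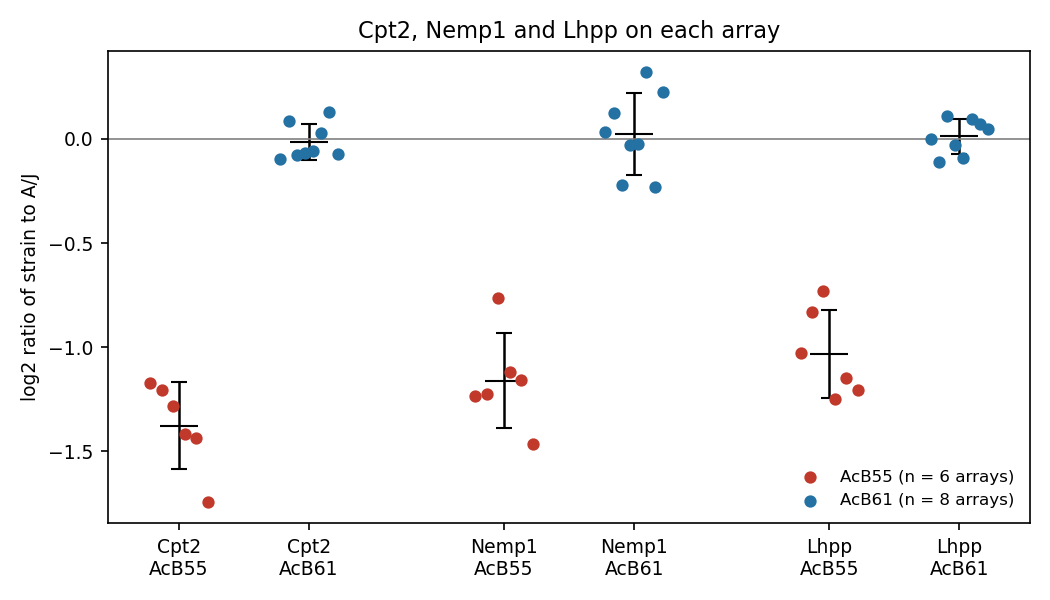
Log2 ratio of strain to A/J (vertical axis) of Cpt2, Nemp1 and Lhpp, 1 point per array, with AcB55 (red, n = 6) left of AcB61 (blue, n = 8) and bars at the mean ± SD. Every AcB55 array lies at or below -0.73 and every AcB61 array between -0.23 and 0.32.

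The 3 genes differed in how they spread. The SD over AcB61 arrays was low for Cpt2 and Lhpp, at percentiles 7.15 and 6.17 of all features, and near the middle for Nemp1, at percentile 61.7. In AcB55 all 3 SDs were larger than most, at percentiles 79.7 for Cpt2, 85.0 for Nemp1 and 80.5 for Lhpp. The mean of the 3 genes on AcB55 replicates 1 to 6 was -1.15, -1.09, -0.93, -1.26, -1.25 and -1.47. Replicate 3, the least low, also had the narrowest spread of all features (SD 0.230), and replicate 6, the lowest, the widest (SD 0.322). The mean of the 3 genes was also divided by the SD of all features on the same array. On AcB55 replicates 1 to 6 this gave -3.99, -4.08, -4.02, -4.999, -4.75 and -4.58. By that measure replicate 1 was the least low and replicate 4 the lowest. The part of array spread in the 3 genes' differences between arrays was not tested. Scaling all arrays to a common spread gave AcB55 means of -1.42, -1.18 and -1.07 for Cpt2, Nemp1 and Lhpp. These strain means do not bear on differences between arrays.

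Slide numbers in the labels were split into 3 runs by their leading digits. The labels name no such runs, so the split is a choice made here and may not follow any batch. Within the run that holds 1 AcB55 and 5 AcB61 arrays, AcB55 minus AcB61 was -1.13 for Cpt2, -1.21 for Nemp1 and -1.01 for Lhpp. Within the run with 3 arrays of each strain it was -1.33, -1.14 and -1.01 for the same genes. The third run holds 2 AcB55 arrays and no AcB61 array, with means of -1.59, -1.31 and -1.18. These are the values that chose the 3 genes, so the split describes them and is no test of the runs. In the run with 3 arrays of each strain, all AcB61 slide numbers come before all AcB55 ones. Without AcB55 replicates 1 and 2, the arrays high in neutrophil genes, the AcB55 means were -1.47, -1.13 and -1.08.

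The choice rests on a pair of limits, so the values around them are given once. At or below -1 in AcB55 lay 15 genes, and Cpt2, Nemp1 and Lhpp were the 3 of them within 0.25 of 0 in AcB61. The gene nearest to them in AcB61, Cpa1, a digestive enzyme of the pancreas, averaged -1.42 ± 2.29 in AcB55 (n = 5) and -0.27 in AcB61, so its AcB55 arrays disagreed. Others below -1 in AcB55 were low in AcB61 as well, such as H2-Eb1, a class II histocompatibility chain, at -1.31 and -1.18. Just inside -1 in AcB55 were Xbp1 (-1.01, AcB61 -0.49), Tmed9 (-1.004, AcB61 -0.39) and Btg1 (-1.001, AcB61 -0.90). Just outside were Arpc1b (-0.99, AcB61 -0.60), Mael (-0.97, AcB61 -0.088) and Mllt6 (-0.96, AcB61 -0.43), of which Mael was also near A/J in AcB61.

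**Figure D2:**
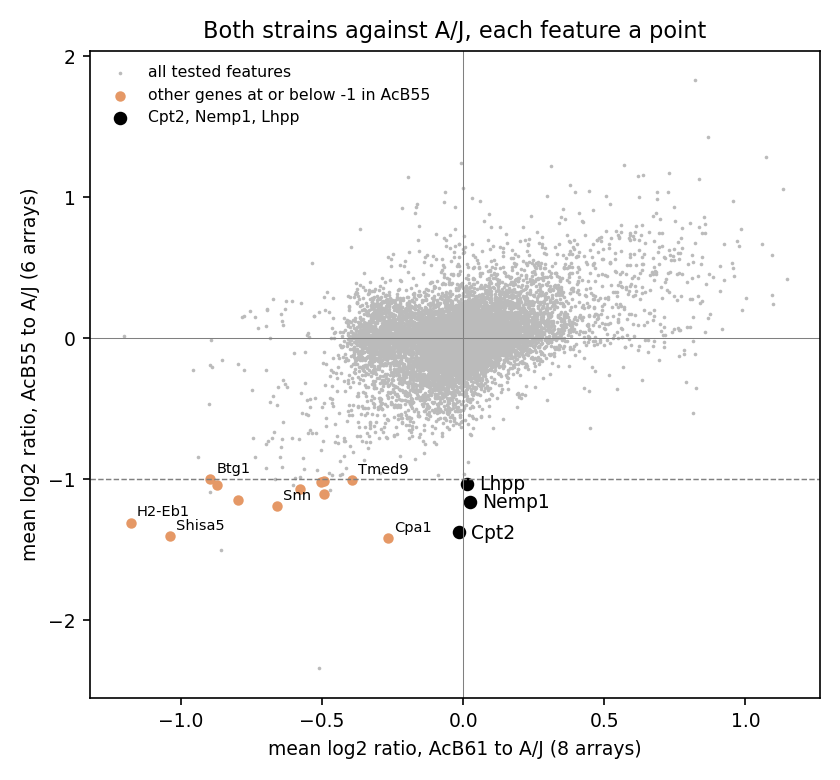
Mean log2 ratio to A/J of every tested feature in AcB55 (vertical axis) and AcB61 (horizontal axis), with Cpt2, Nemp1 and Lhpp in black and the other 12 genes at or below -1 in AcB55 in orange. The 3 genes stand on the AcB61 zero line, and the dashed line marks -1.

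Genes with the closest values over the 14 arrays were sought by the root mean square difference of log2 ratios, among 6280 genes with at least 12 shared arrays. Nearest to Cpt2 were Nemp1 (0.248), Lhpp (0.263), Hrct1 (0.341), Mael (0.346) and Gemin2 (0.381). Nearest to Nemp1 were Hrct1 (0.174), Lhpp (0.211), Cpt2 (0.248), Gemin2 (0.262) and Mael (0.315). Nearest to Lhpp were Hrct1 (0.163), Gemin2 (0.178), Nemp1 (0.211), Cpt2 (0.263) and Mael (0.275). The same 6 genes thus filled all 3 lists of 5. Cpt2, Nemp1 and Lhpp were chosen for like levels in both strains, so their places in each other's lists follow largely from that choice. Hrct1 averaged -0.96 ± 0.26 in AcB55 and 0.0045 ± 0.13 in AcB61. Gemin2, a part of the complex that assembles spliceosomal particles, averaged -0.87 ± 0.13 in AcB55 and 0.018 ± 0.15 in AcB61. Mael, a protein of the piRNA pathway of germ cells, averaged -0.97 ± 0.24 in AcB55 and -0.088 ± 0.21 in AcB61. These were chosen for their likeness, so their values carry no test.

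**Figure D3:**
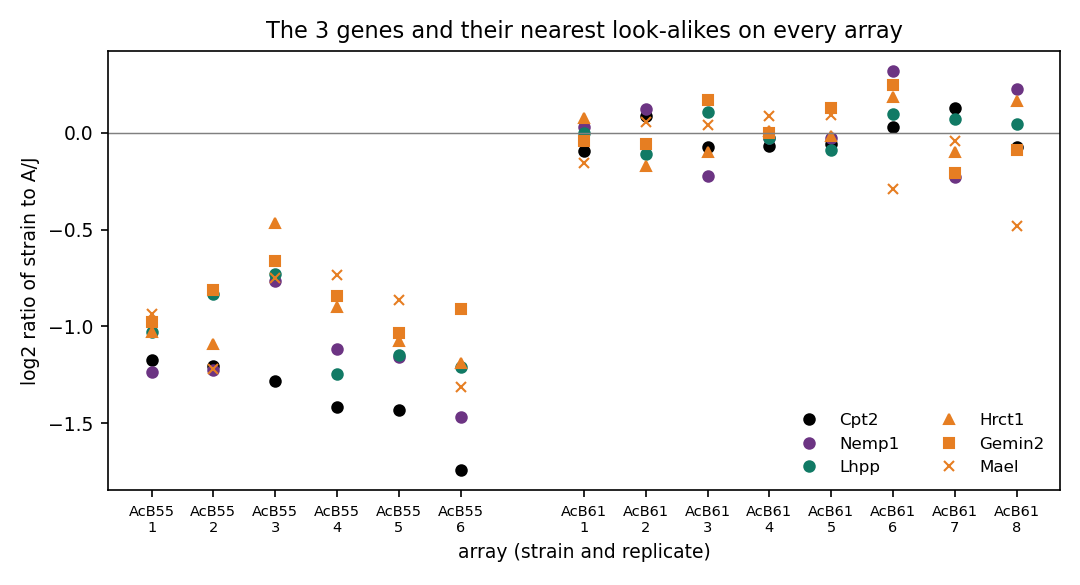
Log2 ratio of strain to A/J (vertical axis) on each of the 6 AcB55 and 8 AcB61 arrays for the 3 genes (circles) and for Hrct1, Gemin2 and Mael (orange). All 6 genes lie at or below -0.47 on every AcB55 array, while on AcB61 arrays Mael reaches -0.48 and the others stay within 0.32 of 0.

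In bulk spleen, fewer cells of a type and less RNA per cell cannot be told apart, so lists of cell-type genes were counted beside the 3 genes, and their part in the 3 genes' values was not tested. All p-values below come from limma with Benjamini-Hochberg adjustment over 13045 features at a threshold of 0.05. They rest on how arrays vary about the mean of their strain, with a variance estimate shared by both strains. AcB61 arrays thus also bear on AcB55 calls, and AcB55 arrays on AcB61 calls. That variation may be technical, and variation among A/J mice is not included. Of all features, 10.9% were called lower and 9.77% higher in AcB55 than in A/J, and 13.3% lower and 10.5% higher in AcB61 than in A/J. With slide runs as a block, features called in AcB61 in either direction fell from 3103 to 1053. For red cell precursors 14 of 17 measured genes were higher in AcB55 (median 0.58, 1 lower) and 14 of 17 in AcB61 (median 0.64, 0 lower), and for the cell cycle 26 of 33 and 25 of 33. For macrophages 7 of 12 genes were lower in AcB55 (4 without AcB55 replicate 6) and 5 of 12 in AcB61, while the cathepsin gene Ctsb was higher in both (0.44 and 0.34) and Ctsd, another, in AcB61 (0.28). The AcB61 calls of Ctsb and Ctsd were lost with slide runs as a block (adjusted p = 0.102 and 0.238) and without AcB61 replicates 3, 5 and 7, and that of Ctsd also without replicate 3, 5 or 7 alone. Of the B cell list Blnk alone was measured (-1.07 in AcB55, -0.58 in AcB61), and of the T and NK list Satb1 alone (-0.18 and -0.025, its AcB55 call lost without AcB55 replicate 1, 2, 5 or 6). Of 4 granulocyte genes 1 was higher in AcB55 (0 without AcB55 replicate 1 or 2 and 3 without replicate 6), and 2 were higher (0 with slide runs as a block) and 1 lower in AcB61. Red cell precursor and cell cycle genes were thus high in both strains, while Cpt2, Nemp1 and Lhpp were low in AcB55 alone by the way they were chosen.

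For Cpt2, the list around it held the carnitine shuttle and mitochondrial fatty acid oxidation, of which 24 of 38 genes besides Cpt2 were measured. In AcB55, 1 was higher, 2 were lower and 21 did not pass, with a median of -0.056 beside -0.0019 over all features. In AcB61, 2 were higher, 1 was lower and 21 did not pass, with a median of 0.013. The shares over all features were 9.77% higher and 10.9% lower in AcB55, and 10.5% and 13.3% in AcB61. Of the features, 5.29% were lower and 6.98% higher in AcB55 minus AcB61, and of these genes 3 and 1 were. In no direction and no comparison did more than 3 of the 24 genes pass.

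Slc25a20, the carrier that brings acylcarnitines to Cpt2, averaged -0.030 ± 0.17 in AcB55 and -0.021 ± 0.19 in AcB61, neither past the threshold. Acad9, an acyl-CoA dehydrogenase that also serves complex I assembly, fell by 0.38 (SD 0.12) in AcB55 (adjusted p = 0.000345), and averaged -0.040 in AcB61 (adjusted p = 0.692). The difference of the strains passed (adjusted p = 0.0173), but not without the 2 AcB55 arrays whose labels carry a b (adjusted p = 0.0725) or without AcB61 replicates 2, 6 and 8 (adjusted p = 0.0507). Acadsb, which acts on short branched chains, also fell in AcB55 by 0.19 (adjusted p = 0.00695, and 0.0524 without AcB55 replicates 1 and 2). Hadha, the alpha subunit of the trifunctional protein that takes long chains through the later steps, was higher in AcB55 at 0.33 ± 0.15 (adjusted p = 0.00556) and averaged -0.14 in AcB61 (adjusted p = 0.162). Its strain difference passed (adjusted p = 0.00869), but not with slide runs as a block (adjusted p = 0.0604). Without the 2 arrays marked b, neither its AcB55 call (adjusted p = 0.073) nor its strain difference (adjusted p = 0.0573) held. In AcB61, Eci1 was lower (-0.30 ± 0.24, n = 7, adjusted p = 0.00524), and Hsd17b10 (0.29 ± 0.30, adjusted p = 0.00967) and Acadl (0.22 ± 0.069, adjusted p = 0.00178) were higher. With slide runs as a block, the AcB61 calls of Eci1, Hsd17b10 and Acadl were lost (adjusted p = 0.115, 0.140 and 0.140), and Hsd17b10 was lost without AcB61 replicates 2, 6 and 8 (adjusted p = 0.238). Of the 10 measured genes of peroxisomal fatty acid oxidation and its regulators, 4 fell in AcB55 (Esrra -0.30, Scp2 -0.30, Ncoa1 -0.23 and Acaa1a -0.22), 2 in AcB61 (Ncoa1 -0.22 and Scp2 -0.17), and 0 of 10 passed between the strains. The share of all features called lower was 10.9% in AcB55 and 13.3% in AcB61. The AcB55 call of Acaa1a was lost without AcB55 replicate 1, 2, 3 or 6, and that of Esrra without replicates 1 and 2 together (adjusted p = 0.086), which left 2 genes lower. The AcB61 call of Ncoa1 was lost without AcB61 replicates 3, 5 and 7 (adjusted p = 0.068).

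For Nemp1, 28 of 52 listed genes of the nuclear envelope and lamina were measured. In AcB55, 6 were higher, 1 was lower and 21 did not pass, with a median of 0.084. In AcB61, 10 were higher, 1 was lower and 17 did not pass, with a median of 0.16. The shares over all features were 9.77% higher and 10.9% lower in AcB55, and 10.5% and 13.3% in AcB61. The genes higher numbered 3 in AcB55 without AcB55 replicates 1 and 2, and 5 in AcB61 with slide runs as a block. That block took all features called in AcB61, in either direction, from 3103 to 1053. In both strains more of the listed genes were higher than lower against A/J, while Nemp1 was low in AcB55. In AcB55 minus AcB61, 3 of the 28 were lower and 1 was higher, beside 5.29% and 6.98% of all features. Lbr, the lamin B receptor of the same membrane, was higher at 0.33 ± 0.16 in AcB55 (adjusted p = 0.00466, and 0.0758 without AcB55 replicates 1 and 2) and 0.61 ± 0.23 in AcB61 (adjusted p = 6.67e-06). Lmna, which encodes lamins A and C, was higher at 0.37 ± 0.29 in AcB55 (adjusted p = 0.0174) and 0.61 ± 0.30 in AcB61 (n = 7, adjusted p = 0.000284), with its AcB55 call lost without AcB55 replicate 1, 2 or 5. Nup160, a pore scaffold protein, was higher at 0.43 ± 0.13 in AcB55 (adjusted p = 0.000107) and averaged 0.093 in AcB61 (adjusted p = 0.264). Emd, or emerin, another inner membrane protein, was the 1 gene lower in AcB55, at -0.38 ± 0.24 (adjusted p = 0.00188), and averaged 0.13 in AcB61 (n = 7), and the strains differed (adjusted p = 0.00612, and 0.0887 with slide runs as a block). Emd was thus lower in AcB55, as Nemp1 was, though by less.

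Ran, the GTPase that the Xenopus counterpart of Nemp1 binds, was higher in AcB55 at 0.46 ± 0.11 (adjusted p = 0.00454) and in AcB61 at 0.63 ± 0.38 (adjusted p = 0.000117). Of the 25 measured of 31 listed genes for Ran and nuclear transport, 7 were higher and 1 was lower in AcB55 (median 0.14). In AcB61, 6 were higher and 0 lower (median 0.090), with 1 lower without AcB61 replicate 3. Over all features, 9.77% were higher and 10.9% lower in AcB55, and 10.5% and 13.3% in AcB61. With slide runs as a block 3 of these genes were higher in AcB61, while all features called there, in either direction, fell from 3103 to 1053. Ipo5, an importin, was higher at 0.52 ± 0.14 in AcB55 (adjusted p = 0.00039) and averaged 0.18 in AcB61 (adjusted p = 0.101). Kpna2, an importin alpha, averaged 0.28 in AcB55 (adjusted p = 0.0934) and was higher at 0.63 ± 0.38 in AcB61 (adjusted p = 0.000199). The gene lower in AcB55 was Ipo9, an importin, at -0.59 ± 0.25 (adjusted p = 0.00963, and 0.068 without the 2 AcB55 arrays marked b), with -0.048 ± 0.54 in AcB61.

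For Lhpp, 5 of 13 listed enzymes of phosphohistidine and pyrophosphate were measured, namely Nme6, Ppa1, Ppa2, Prune1 and Acly. None passed in AcB55 (median 0.039; 1 higher without AcB55 replicate 5), and in AcB61 Ppa1, an inorganic pyrophosphatase, was higher at 0.15 ± 0.12 (adjusted p = 0.0139, 0.245 without AcB61 replicates 2, 6 and 8, and 0.158 with slide runs as a block). Of 18 measured HAD-type phosphatases other than Lhpp, from 36 listed, 1 was higher and 3 were lower in AcB55 (median -0.017). In AcB61, 1 was higher and 1 was lower (median 0.0028), with 2 higher without AcB61 replicate 5, 6 or 7. Over all features, 9.77% were higher and 10.9% lower in AcB55, and 10.5% and 13.3% in AcB61. Nt5c3, a pyrimidine nucleotidase of red cells, was higher at 0.56 ± 0.20 in AcB55 (adjusted p = 0.000779) and 0.76 ± 0.35 in AcB61 (adjusted p = 1.4e-05). Ctdsp2, a phosphatase of the RNA polymerase II tail, was lower in both, at -0.42 ± 0.095 in AcB55 (adjusted p = 0.000448) and -0.32 ± 0.23 in AcB61 (adjusted p = 0.00166). Phospho2 (-0.34 ± 0.32, adjusted p = 0.0104) and Ctdnep1 (-0.26 ± 0.13, adjusted p = 0.00255), a phosphatase of the nuclear envelope, were lower in AcB55, with 0.064 and -0.016 in AcB61. Both differed between the strains (adjusted p = 0.0389 and 0.0408), but not when AcB55 replicate 6 was left out (adjusted p = 0.106 and 0.0951), nor without most other single arrays. Both AcB55 calls were lost without the 2 arrays marked b (adjusted p = 0.088 and 0.059). The AcB55 call of Phospho2 was also lost without AcB55 replicate 6 (adjusted p = 0.054). All of these changes were smaller than the mean of -1.03 of Lhpp in AcB55. Lhpp was chosen for its low value there, so this order of size was likely from the start.

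**Figure D4:**
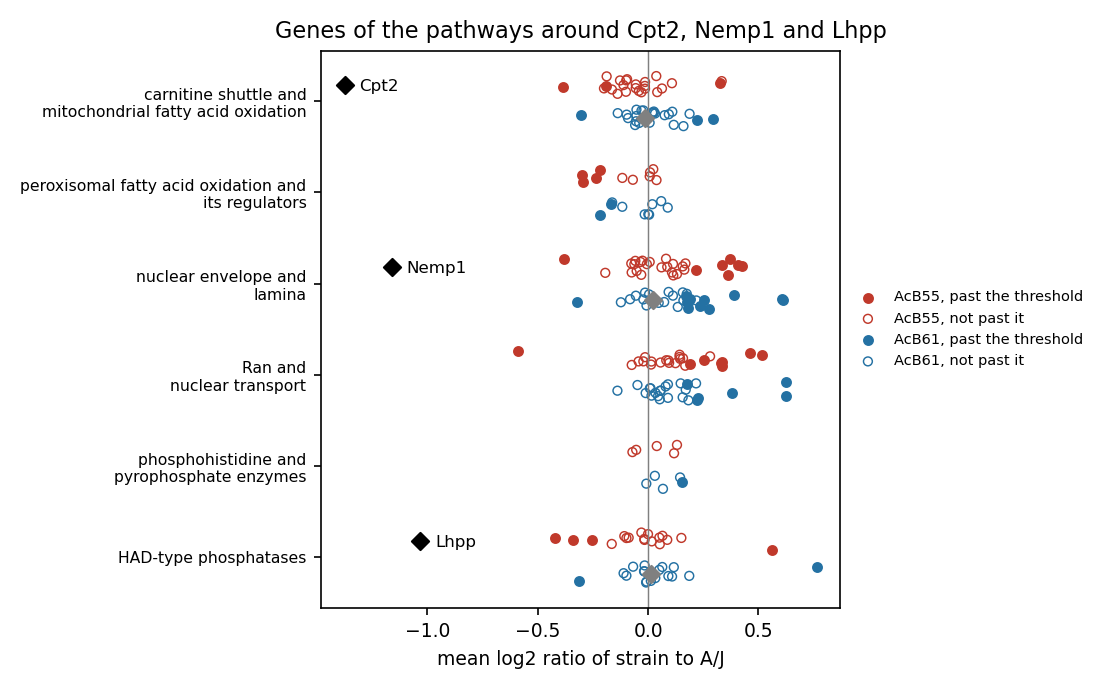
Mean log2 ratio of strain to A/J (horizontal axis) of the measured genes of 6 lists (rows), AcB55 in red above AcB61 in blue, filled where past the threshold. Black diamonds show Cpt2, Nemp1 and Lhpp in AcB55 and grey diamonds in AcB61, and in AcB55 each lies to the left of all genes of its list.

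AcB lines carry blocks of chromosome from either parent, so the genes beside each of the 3 were examined in RefSeq order (GRCm38.p6), 10 measured genes on each side. Of the 60 neighbours, 8 were higher and 8 lower in AcB55 and 44 did not pass, beside 9.77% higher and 10.9% lower over all features. In AcB61 the counts were also 8 and 8, beside 10.5% and 13.3%, but 7 of the 8 lower genes lay beside Cpt2. Between the strains 6 were higher and 4 lower. Beside Cpt2 on chromosome 4, 2 of 20 were higher and 4 lower in AcB55 (median -0.060), and 2 were higher and 7 lower in AcB61 (median -0.0070). The 7 were Tmem59, Plpp3, Pde4b, Scp2, Coa7, Btf3l4 and Rab3b, named after their values were seen, with means of -0.36 to -0.15. With slide runs as a block, 2 genes beside Cpt2 were lower in AcB61. Under that setting all features called in AcB61, in either direction, fell from 3103 to 1053. Beside Nemp1 on chromosome 10, 3 were higher and 2 lower in AcB55 (median -0.0091), and 2 were higher and 1 lower in AcB61 (2 lower without AcB55 replicate 1 or AcB61 replicate 3 or 5). Beside Lhpp on chromosome 7, 3 were higher and 2 lower in AcB55 (median -0.041), and 4 were higher (2 without AcB61 replicate 3) and 0 lower in AcB61. For AcB55, without AcB55 replicate 4 the genes higher beside Cpt2 were 1, without replicate 2 those lower beside Nemp1 were 4, and without replicate 6 those lower beside Lhpp were 1. For AcB61, the genes higher beside Cpt2 were 1 without AcB61 replicate 2, 6, 7 or 8. With 5 genes a side in AcB55, 2 of 10 were lower beside Cpt2, 2 beside Nemp1 and 1 beside Lhpp.

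The nearest measured genes beside Cpt2 did not come near its value, but they are not its direct neighbours. In RefSeq order 7 and 9 protein-coding genes lie between Cpt2 and Yipf1 and Hspb11, respectively. Between Cpt2 and Scp2 and Echdc2 lie 2 and 3. Yipf1, a Golgi protein, averaged -0.092 in AcB55 and -0.025 in AcB61, and Hspb11, a protein of cilium transport, averaged 0.042 and 0.051. On the other side Scp2, a sterol carrier and peroxisomal thiolase, fell by 0.30 (SD 0.14) in AcB55 (adjusted p = 0.000526) and by 0.17 in AcB61 (adjusted p = 0.0130, and 0.160 without AcB61 replicates 2, 6 and 8). The difference of the strains in Scp2 did not pass (adjusted p = 0.244). Echdc2 averaged -0.062 in AcB55 and 0.079 in AcB61.

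Of the nearest measured genes beside Nemp1, Stat6 and Lrp1 have 1 and 2 protein-coding genes between them and Nemp1, respectively. Atp5b and Baz2a, on the other side, have 15 and 16. Stat6, the transducer of interleukin-4 signals, averaged -0.13 in AcB55 (n = 5, adjusted p = 0.409) and -0.090 in AcB61. Lrp1, an endocytic receptor, averaged -0.051 in AcB55 and -0.17 in AcB61, and Baz2a, a chromatin factor of the nucleolus, 0.089 and 0.0096. Atp5b, the beta subunit of ATP synthase, was higher at 0.23 ± 0.16 in AcB55 (adjusted p = 0.00887, and 0.177 without AcB55 replicates 1 and 2) and 0.45 ± 0.11 in AcB61 (adjusted p = 9.85e-06). The exception was Arhgap9, the measured gene in position 4 before Nemp1. Its log2 ratios on AcB55 replicates 1 to 6 were -0.92, -0.75, -0.91, -1.03, -0.95 and -1.18, and on AcB61 replicates 1 to 8 they were 0.040, -0.48, -0.24, -0.055, -0.092, -0.44, -0.32 and -0.79. It was lower in AcB55 at -0.96 ± 0.15 (adjusted p = 6.39e-07) and in AcB61 at -0.30 ± 0.27 (adjusted p = 0.00676, and 0.158 without AcB61 replicates 2, 6 and 8), and the strains differed by -0.66 (adjusted p = 0.00208). The arrays of the strains overlapped in Arhgap9, which they did not in Nemp1, and 11 protein-coding genes lie between them in RefSeq order.

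Of the nearest measured genes beside Lhpp, Oat and Bub3 have 1 and 5 protein-coding genes between them and Lhpp, respectively. Zranb1 and Ctbp2, on the other side, have 3 and 4. Oat, ornithine aminotransferase, averaged -0.14 in AcB55 (adjusted p = 0.0927) and 0.026 in AcB61. Bub3, of the mitotic checkpoint, averaged 0.17 in AcB55 (adjusted p = 0.0576) and 0.18 in AcB61 (adjusted p = 0.0182, and 0.0572 without AcB61 replicate 3 and 0.225 with slide runs as a block). Zranb1, a deubiquitinase, averaged -0.10 in AcB55 and 0.093 in AcB61, and Ctbp2, a corepressor, 0.14 and -0.027. Farther along, Uros, an enzyme of haem synthesis, was higher at 0.70 ± 0.21 in AcB55 (adjusted p = 1.22e-06) and 0.47 ± 0.12 in AcB61 (adjusted p = 1.74e-05). Mki67, a marker of dividing cells, was higher at 1.83 ± 0.25 in AcB55 (adjusted p = 1.9e-10) and 0.82 ± 0.20 in AcB61 (adjusted p = 8.99e-07). Uros and Mki67 were thus higher in AcB55, where Lhpp was low.

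**Figure D5:**
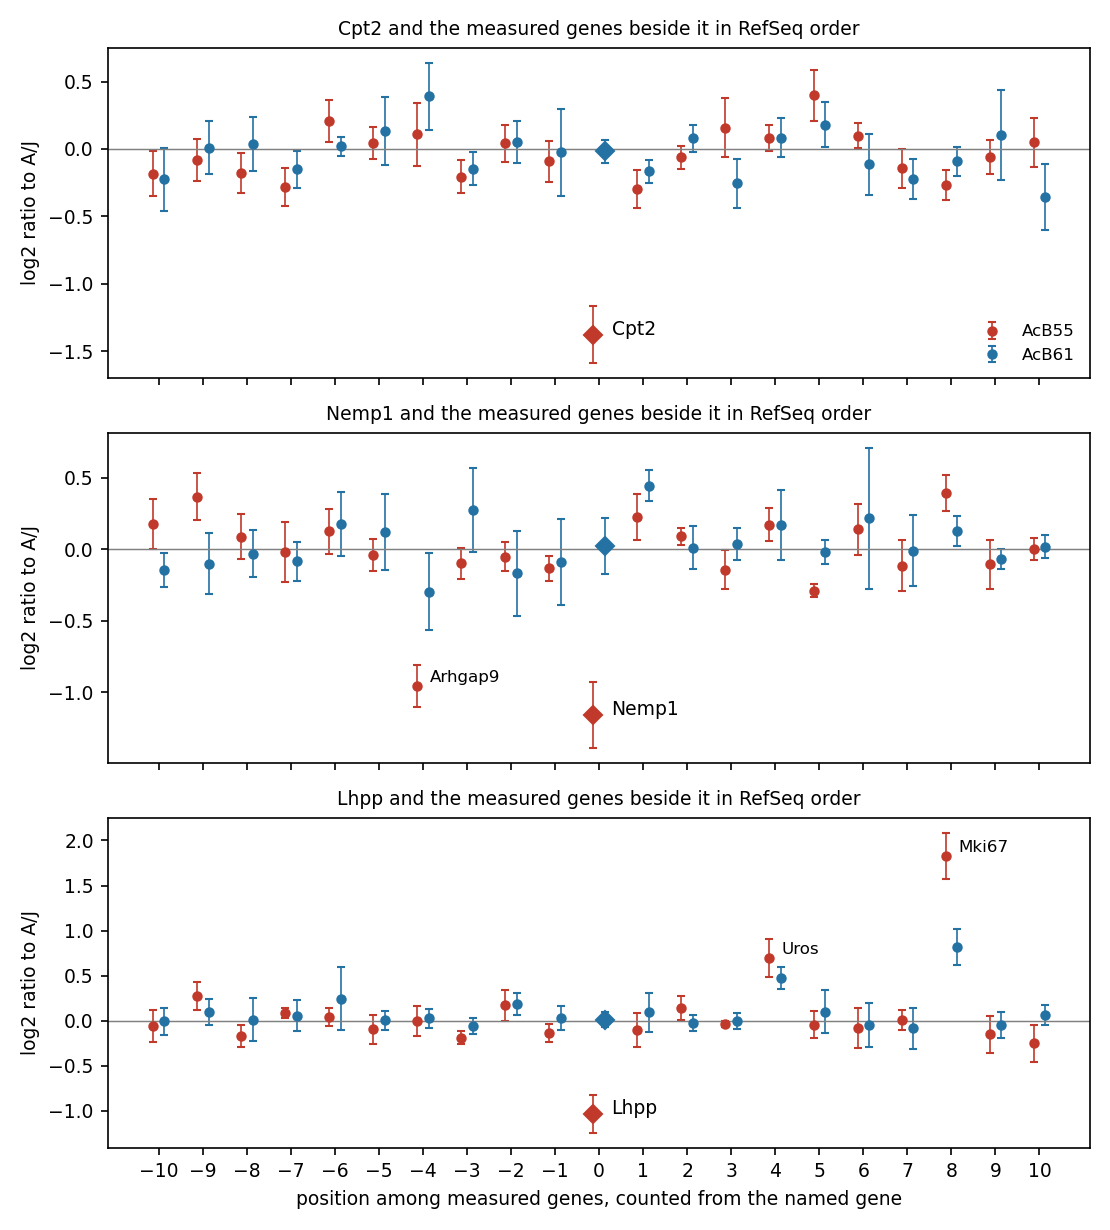
Mean log2 ratio of strain to A/J ± SD over arrays (vertical axis) of Cpt2, Nemp1 and Lhpp (diamonds) and of the 10 measured genes on each side in RefSeq order (circles), AcB55 in red and AcB61 in blue. No neighbour of Cpt2 or Lhpp lies below -0.36 in either strain, and beside Nemp1 Arhgap9 alone lies below -0.5.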

How the data were processed

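Spleen RNA of AcB55 and AcB61 was set against A/J on 14 two-channel cDNA arrays. Per the labels' protocols, Cy3- and Cy5-labelled cDNA was hybridised, scanned with ScanArray, quantified with QuantArray 3.0 and imported into GeneSpring, and their normalization is not given in the sources. The deposited table holds a log2 ratio per feature and array, read as such from its values because the base is not given. No signal intensity was used, and spot strength is unknown. Of 15247 features, 14612 had a value, and 7849 of these had 1 gene symbol in the repository's platform annotation. Probes of a gene were averaged, and features with at least 3 values in each strain were tested, 13045 in all.

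R 4.3.3 with limma 3.58.1 (lmFit with a mean per strain, eBayes) tested each strain against 0 and AcB55 minus AcB61, two-sided, with Benjamini-Hochberg adjustment over all features. The fit was checked on data made with known answers and independent noise on each array. That check does not cover arrays that correlate in sets, as those of AcB61 did. Counts and figures were made with pandas 2.3.3, numpy 2.4.6 and matplotlib 3.10.9 under Python 3.11.15. The labels do not say whether arrays share a mouse, and each array counted as 1 replicate. RefSeq (GRCm38.p6) gave gene order, by gene ID for 6271 of the 6286 genes, and promoters, for 2 of the 3 genes.

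The 3 genes and the 12 gene lists were chosen with earlier results of these data known. Named are the 3 genes, up to 4 genes per list past the threshold with the largest mean, the nearest 2 measured neighbours on each side and any called in AcB55 with an absolute mean of at least 0.5, the 5 genes most like each, the genes around the limits, Xist, S100a9 and Lcn2. H2-Eb1, Cpa1, Slc25a20, Acadsb, Acadl, Emd, Ctsd and those neighbours of Cpt2 said so beside their values were named after their values were seen. Alternatives were centring, scaling, quantile normalization, other filters, robust eBayes, slide runs as a block and arrays left out. Slide runs were cut by the leading digits of the slide numbers.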

Additional observations from a re-analysis of the deposited data

Results flagged for a closer look

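Among the named genes, 126 groups of arrays were searched for 1 array far from the others of its strain, a search in which chance alone marks about 1 group in 20, and 2 groups were marked. Baz2a, a measured neighbour of Nemp1, read 0.36 on AcB61 replicate 8, against -0.12 to 0.067 on the other AcB61 arrays. Satb1, the T and NK cell gene, read 0.22 on AcB61 replicate 3, against -0.17 to 0.0065 on the others. No array of Cpt2, Nemp1 or Lhpp was marked in either strain.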

How the results depend on the processing

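The means of Cpt2, Nemp1 and Lhpp moved little. Over 24 alternatives each, AcB55 means ran from -1.47 to -1.27 for Cpt2, -1.27 to -1.10 for Nemp1 and -1.09 to -0.97 for Lhpp, and AcB61 means from -0.12 to -0.0049, -0.095 to 0.13 and -0.041 to 0.029. Leaving out 1 array at a time gave AcB55 means of -1.42 to -1.30, -1.24 to -1.10 and -1.09 to -0.99. The largest shift relative to spread was Cpt2 in AcB61, -0.12 with slide runs as a block. Features past the threshold numbered 2695 for AcB55, 3103 for AcB61 and 1601 between them, and leaving out 1 array gave 2064 to 2774, 2695 to 3096 and 854 to 1694. With slide runs as a block there were 1053 in AcB61 and 244 between the strains. Without the 2 AcB55 arrays marked b there were 705 between the strains. Chosen after seeing the data, leaving out AcB61 replicates 2, 6 and 8 gave 2545 and leaving out 3, 5 and 7 gave 2781. The causes were not tested. Of 1500 recounts of lists and neighbours 108 moved by more than 1.5 times, and of 4848 recomputed calls of named genes 127 were lost and 89 gained, with 0 reversed. No paired analysis was possible because the labels give no replicate numbers. Signal over background was not used here, so which ratios rest on dim spots is unknown.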

Other observations

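The following was noticed after the values were seen. Features in the table are numbered, and what the numbers stand for on the slide is not stated in the labels. Lhpp has number 10031, Nemp1 10035 and Cpt2 10660. Their look-alikes Gemin2 and Hrct1 have 10080 and 10639. Of 11 features at or below -0.8 in AcB55 and within 0.25 of 0 in AcB61, these 5 lie in the stretch of numbers from Lhpp to Cpt2. The stretch holds 616 of the 14605 features with at least 3 values in each strain, or 4.22%. Its ends are set by these chosen genes, so the comparison is not a test. The 3 features between Lhpp and Nemp1 averaged 0.0073 to 0.14 in AcB55 and -0.13 to 0.039 in AcB61. Outside that stretch, Rgs2, a regulator of G protein signalling with number 5004, averaged -0.94 in AcB55 and 0.035 in AcB61.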
